A study of Rattus norvegicus with 119 samples.

Results

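Aquaporins are membrane channels for water, and the aquaglyceroporins among them also pass glycerol. The 8 genes described here are the water channels Aqp1, Aqp4 and Aqp5, the aquaglyceroporins Aqp3, Aqp7 and Aqp9, the intracellular channel Aqp11, and Slc14a1, which encodes urea transporter UT-B. They were chosen by name, with earlier results of these data known. Every probe whose platform gene symbol was one of them was used. This gave 10 probes for 8 of the 16951 genes named among 30367 probes. Aqp4 had 3 probes and each other gene had 1.

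The urothelium lines the bladder and keeps urine apart from the blood, and its apical membrane is among the least permeable of mammalian epithelia to water and urea. Rat urothelial cells are known to make AQP3 and UT-B. AQP1 is best known from capillary endothelium, erythrocytes and kidney tubules, AQP7 from adipocytes, AQP9 from liver, AQP4 from astrocytes and AQP5 from glands. Pioglitazone and rosiglitazone are thiazolidinediones, agonists of the nuclear receptor PPAR-gamma, which drives adipocyte differentiation and is also made by urothelial cells. In mouse adipocytes Aqp7 is a known target of PPAR-gamma.

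Male and female Sprague-Dawley rats were dosed by mouth once a day with 0.5% methylcellulose (the vehicle), with pioglitazone hydrochloride at 16 (low dose) or 63 mg/kg/day (high dose), or with rosiglitazone maleate at 10 mg/kg/day. All arms received the same dose volume, 10 mL/kg, for 3, 28 or 90 days, and the bladder was taken 1 day after the last dose. Its lining was scraped off with a scalpel, and RNA of 1 animal was hybridised to each one-colour Agilent array. The submitters' quality label rejects 3 of 119 arrays, and the remaining 116 arrays form 24 groups of 4 or 5 (30 vehicle, 28 low-dose, 28 high-dose, 30 rosiglitazone). The rats' ages are not given in the sources used here. Age and time of sampling differ with the day and cannot be told apart from dosing time.

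Values are log2 signals, and a difference of 1 is a doubling. Array medians lay between 6.40 and 6.63. The files give no detection calls, so apart from the ranks that follow the level of one probe is not set against that of another. By mean signal Aqp5 lay at the 34th and Aqp7 at the 41st percentile of all probes. The 3 Aqp4 probes lay at the 45th, 27th and 15th. Whether these faint probes stood above background cannot be told, and their differences and correlations carry that limit. Markers of umbrella cells, the surface layer of the urothelium, had a mean level of 15.04 to 16.08 on vehicle arrays, and markers of basal and intermediate urothelium had 10.76 to 12.61. The marker signals of other cell types varied between animals. Over the 30 vehicle arrays the mean level ranged from 6.92 to 14.55 for 8 smooth muscle markers, from 9.02 to 14.08 for 6 fibroblast markers, from 8.47 to 12.38 for 7 erythrocyte markers and from 5.38 to 10.48 for 7 adipocyte markers. The median correlation of an array with the others was lowest for high-dose female day 3 array 3 (0.817) and low-dose female day 28 array 5 (0.861), against 0.980 for the median array. Vehicle male day 3 array 3 also stood apart. It had the highest fibroblast level (14.08) and the lowest basal level (10.76) of the vehicle arrays, and it carried the highest Aqp1 (12.99) and Aqp9 (9.74) and the lowest Aqp3 (12.54) and Slc14a1 (6.96) signals among them. Several member calls and differences are also given without 1 or more of these arrays, a choice made after seeing the data.

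Promoters of Aqp1 and Aqp3, the members with differences past the threshold over both sexes, are shown from RefSeq (assembly GRCr8), 250 bases before to 50 bases after the gene's start, 5′ to 3′ on the gene's strand. Capitals mark the letters TATAAA, known as the TATA box. The Aqp1 window is chr4:85812534-85812833 on the + strand, and the Aqp3 window is chr5:61040634-61040933 on the - strand.
Aqp1: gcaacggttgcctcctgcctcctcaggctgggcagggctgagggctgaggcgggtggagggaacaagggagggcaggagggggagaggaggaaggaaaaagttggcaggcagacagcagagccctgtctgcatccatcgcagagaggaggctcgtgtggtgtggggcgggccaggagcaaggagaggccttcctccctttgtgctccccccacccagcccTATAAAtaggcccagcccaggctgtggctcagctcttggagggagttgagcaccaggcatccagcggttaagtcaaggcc
Aqp3: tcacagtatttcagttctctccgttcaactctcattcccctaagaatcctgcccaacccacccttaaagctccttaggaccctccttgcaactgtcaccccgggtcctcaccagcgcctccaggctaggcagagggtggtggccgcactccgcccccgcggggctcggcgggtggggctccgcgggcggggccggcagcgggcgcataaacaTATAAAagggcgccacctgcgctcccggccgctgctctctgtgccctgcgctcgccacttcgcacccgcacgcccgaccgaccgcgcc
In Aqp1 the first base of TATAAA lies at -30 and in Aqp3 at -38 from the start. Slc14a1 also holds TATAAA, at -13, and the other members with a window do not. The Slc14a1 window, chr18:73864594-73864893 on the - strand, lies at a start inside the gene, which spans 73840568 to 73883925. The sequence, searched on both strands, occurs in 14.2% of 33469 promoters of the same length. The letters AGGTCANAGGTCA, a direct repeat of the half-site to which PPAR-gamma and its partner RXR bind, were found in none of the 7 members with a promoter in the table and in 0.0538% of all promoters. The single half-site AGGTCA occurs in 16.2% of all promoters and, among the 7 members, in Aqp5 alone, at -20. No window for Aqp7 was at hand. A match of letters describes the window and says nothing of binding. Aqp7 and Aqp3 are neighbours on rat chromosome 5 with 0 protein-coding genes between them, and Slc14a1 lies likewise beside Slc14a2 on chromosome 18.

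In the vehicle arm the first question was how the transporters' signals varied with sex and day. Aqp3, a water and glycerol channel, was higher after 28 and 90 days than after 3, and Aqp1 was lower after 28 days than after 3. The other 6 members showed no difference between days that passed the test. In the 10 vehicle arrays of each day the Aqp3 signal ranged from 12.54 to 15.54 at day 3 (median 15.13), from 14.82 to 15.82 at day 28 (median 15.52) and from 15.07 to 16.04 at day 90 (median 15.61). The days overlapped, and the spread was widest at day 3, where 4 of the 10 arrays were under 15. The difference was 0.75 ± 0.21 (log2, SE) for day 28 minus day 3 (adjusted p = 0.0304) and 0.82 ± 0.21 for day 90 minus day 3 (adjusted p = 0.0157). All adjusted p-values are from limma with Benjamini-Hochberg adjustment over all 30367 probes of a contrast, and called means an adjusted p under 0.05.

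Aqp1 signals of the vehicle arrays lay between 10.23 and 12.99 at day 3 (median 11.02), between 8.86 and 11.23 at day 28 (median 9.80) and between 9.82 and 12.45 at day 90 (median 10.97). Thus most day 28 arrays were below most arrays of the other days, and all days overlapped. Day 28 minus day 3 was -1.28 ± 0.36 (adjusted p = 0.0304), and day 90 minus day 28 was 1.34 ± 0.36 without a call (adjusted p = 0.18). Across the days 2 of 8 members were called by the F test, where 3.43% of all probes were. For day 28 minus day 3, 2 of 8 members were called (2.92% of probes), for day 90 minus day 3 1 of 8 (2.57%) and for day 90 minus day 28 0 of 8 (0.0165%). With vehicle male day 3 array 3 left out, these differences from day 3 were no longer called. Aqp3 then gave 0.49 (adjusted p = 0.217) and 0.56 (0.142), Aqp1 gave -1.06 (0.147), and the number of probes called across days dropped from 1042 to 358. Of the 5 fits that each left out 1 vehicle replicate, 4 lost the Aqp1 call, 4 the Aqp3 call at day 28 and 3 the Aqp3 call at day 90.

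Markers of other cells moved with the day too. From day 3 to day 28, 5 of 7 erythrocyte markers were called lower (list median -1.54). So were 2 of 6 fibroblast markers (median -1.85), and 2 of 6 umbrella cell markers were called higher (median 0.45). None of 8 smooth muscle markers was called (median -1.50). Fibroblast levels were 10.36 to 14.08 at day 3 and 9.53 to 12.00 at day 28, and erythrocyte levels 9.31 to 12.38 and 8.47 to 11.17. Their part in the day differences of Aqp1 and Aqp3 was not tested. In scraped tissue, fewer cells of a type and less RNA per cell cannot be told apart.

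**Figure D1:**
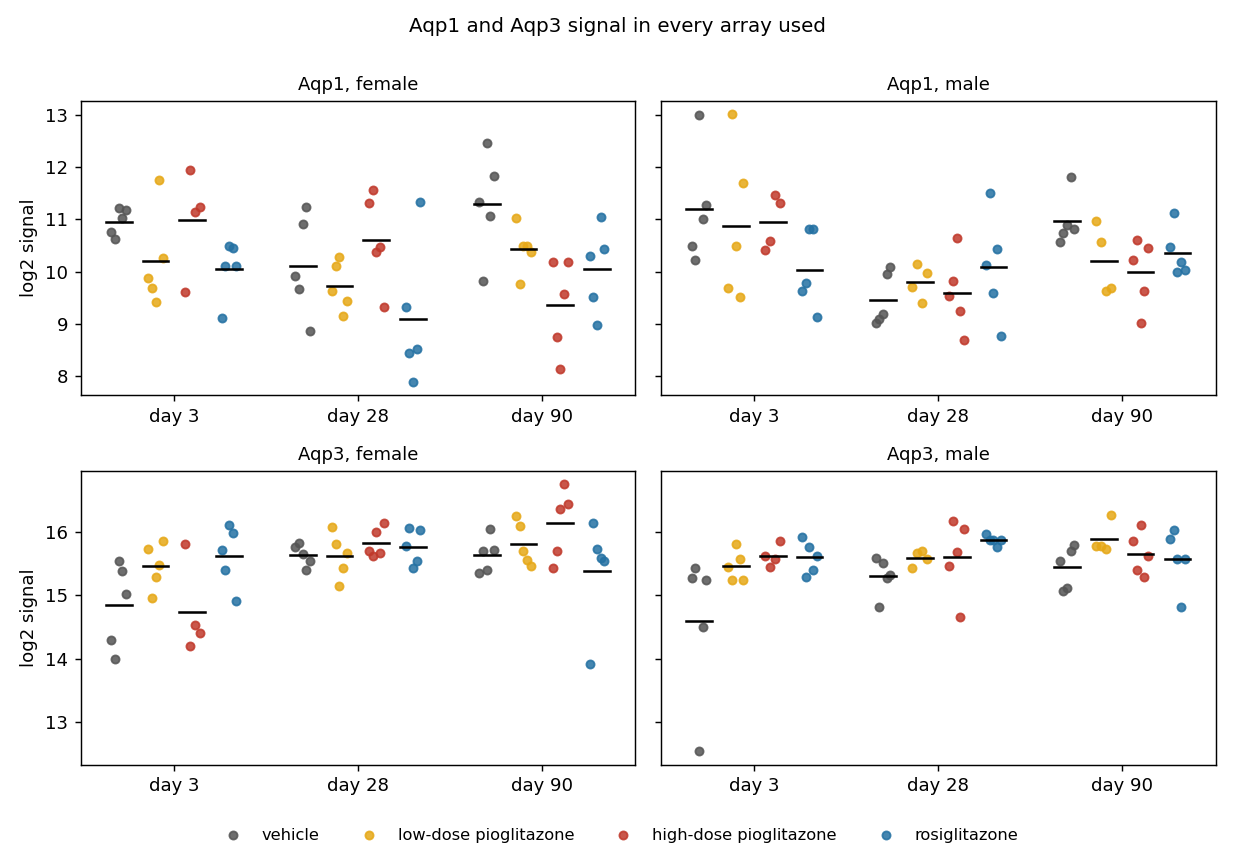
Log2 signal of Aqp1 and Aqp3 on each of the 116 arrays, grouped by treatment, sex and day; each point is 1 array (1 rat) and each black bar a group mean. Aqp1 vehicle arrays lie mostly lower at day 28 than at the other days, and 1 vehicle male day 3 array has both the highest Aqp1 (12.99) and the lowest Aqp3 (12.54) of its arm.

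No member passed the test of vehicle females against males. Over the 3 days 0 of 8 were called, and 0.283% of all probes were. Within a day 0 of 8 were called at day 3 (0.448% of probes), 0 of 8 at day 28 (0.132%) and 0 of 8 at day 90 (0% of probes, with 1681 probes at an unadjusted p under 0.05). Aqp9, which passes glycerol and other small solutes, had the smallest p-value. Its signal was 7.17 ± 0.52 (SD, n = 15) in females and 7.73 ± 0.64 (SD, n = 15) in males, a female minus male difference of -0.57 ± 0.19 (SE, adjusted p = 0.154), and -0.42 (adjusted p = 0.317) without vehicle male day 3 array 3. Slc14a1 was at 9.25 ± 0.46 in females and 8.91 ± 0.77 in males (SD, n = 15 each), a difference of 0.33 (adjusted p = 0.497), and 0.22 (adjusted p = 0.71) without that array.

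The remaining members were described over all 30 vehicle arrays. Aqp4 had 6.17 ± 0.28 (SD) with its brightest probe, Aqp5 5.53 ± 0.35, Aqp11 7.18 ± 0.39 and Aqp9 7.45 ± 0.64. Aqp7 had 5.57 ± 0.83, with 29 arrays between 4.80 and 6.42 and 1, female day 3 array 2, at 9.45. Ordered by mean, the 6 vehicle groups of Aqp1 ran from 11.30 (female day 90) to 9.47 (male day 28), and those of Slc14a1 from 9.40 (female day 3) to 8.36 (male day 3). Only 1 of the 5 gaps between neighbours in this order exceeded the SD within groups for Aqp1 (0.84 against 0.82) and for Slc14a1 (0.61 against 0.54), and 0 of 5 did for each of the other 6 members. Without vehicle male day 3 array 3 no gap exceeded the SD in any of the 8 members, and the largest gap was 0.65 for Aqp1 (SD 0.80) and 0.39 for Slc14a1 (SD 0.52).

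Against vehicle, averaged over both sexes and 3 days, the signal of 1 member, Aqp1, was lower with rosiglitazone, and no member passed the threshold with low- or high-dose pioglitazone. Of 8 members, 0 were called with low-dose pioglitazone (1.39% of all probes were), 0 with high-dose pioglitazone (3.27%) and 1 with rosiglitazone (3.35%). At an unadjusted p under 0.05 the numbers were 2, 3 and 4 of 8, where 14.1%, 13.9% and 17.5% of all probes were. The median member difference was -0.04, -0.04 and 0.04 in the 3 arms, and the median over all probes was 0.01, 0.00 and -0.00. Arms share the vehicle arrays, so their differences are not independent of each other. Rosiglitazone and pioglitazone were given at different doses, and their values stand side by side without a comparison.

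**Figure D2:**
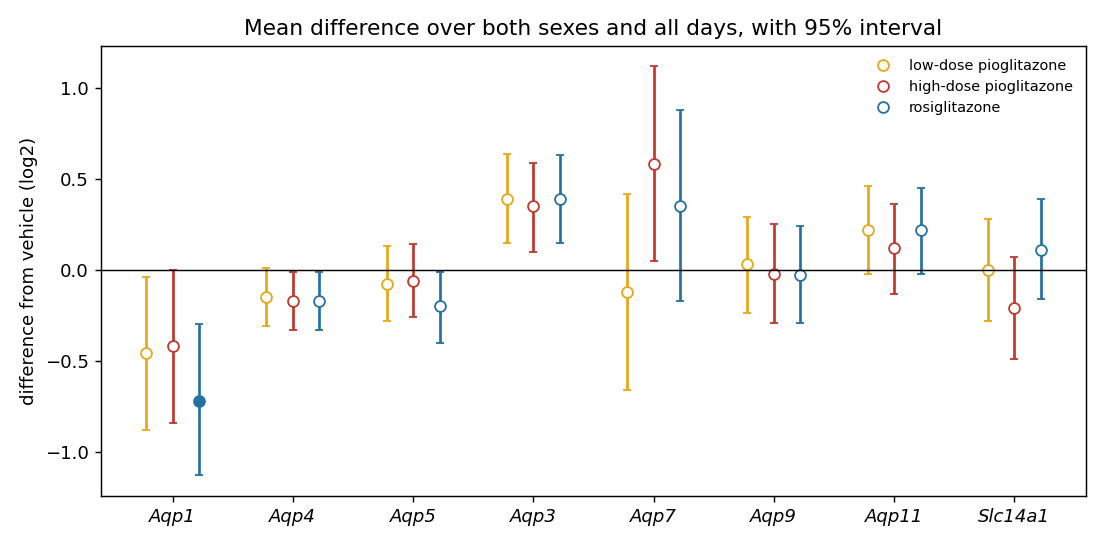
Difference from vehicle (log2) of the 8 members in the 3 arms, as the mean over both sexes and 3 days, with 95% confidence intervals; filled symbols passed an adjusted p of 0.05 and open symbols did not. Aqp1 with rosiglitazone (-0.72) is the 1 filled symbol, and Aqp3 lies between 0.35 and 0.39 in every arm.

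Aqp1, the water channel of capillaries and red cells, ranged from 8.86 to 12.99 in vehicle arrays (median 10.78) and from 7.90 to 11.51 with rosiglitazone (median 10.11). The arms overlapped widely. The rosiglitazone mean was 9.95 against 10.67, a difference of -0.72 ± 0.21 (SE; 95% interval -1.13 to -0.30; 1.64-fold lower; adjusted p = 0.0334), and it was negative in 5 of 6 combinations of sex and day, also without vehicle male day 3 array 3. Low-dose pioglitazone gave -0.46 ± 0.21 (adjusted p = 0.308) and high-dose pioglitazone -0.42 ± 0.21 (adjusted p = 0.363). Without that array these were -0.38 and -0.34, negative in 4 and 2 of the 6 combinations. With all arrays of one replicate number left out of an arm, the rosiglitazone call was lost for vehicle replicates 3, 4 and 5 and rosiglitazone replicates 1 and 3 (adjusted p = 0.0634 to 0.152). It was also lost without the single vehicle male day 3 array 3 (-0.64, adjusted p = 0.0593). All the calls of Aqp1 and Aqp3, though not that of Slc14a1 given further on, were lost when the 3 rejected arrays were put back.

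By sex, rosiglitazone females had 9.74 and vehicle females 10.79, a fall of Aqp1 by 1.05 on the log2 scale (difference -1.05 ± 0.29, adjusted p = 0.0427), and males gave -0.38. The female minus male difference of the effect was -0.66 (adjusted p = 0.782), so the sexes were not shown to differ. The female call was lost in 8 of 10 fits that left out a replicate (differences of -1.27 to -0.87). In females 1 of 8 members was called (1.51% of probes) and in males 0 of 8 (0.431%).

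At single days, Aqp1 was lower with high-dose pioglitazone after 90 days. In females the 5 treated arrays had 10.18, 8.76, 8.15, 9.58 and 10.18, and the 5 vehicle arrays 11.33, 9.82, 12.45, 11.06 and 11.83. In males the treated arrays had 10.22, 10.61, 9.03, 9.64 and 10.45, and the vehicle arrays 10.57, 10.74, 10.89, 11.81 and 10.82. In each sex the groups overlapped by a single vehicle array. The mean was 9.68 against 11.14, a difference of -1.45 ± 0.36 (SE; 95% interval -2.17 to -0.74; 2.73-fold lower; adjusted p = 0.0105). The call was lost without high-dose replicate 3 (-1.18, adjusted p = 0.0827). At days 3 and 28 the same dose gave -0.11 ± 0.38 (0.11 without vehicle male day 3 array 3) and 0.31 ± 0.36, but the test of the effect across days did not pass (adjusted p = 0.624). At day 90 low-dose pioglitazone gave -0.81 ± 0.37 (adjusted p = 0.845) and rosiglitazone -0.92 ± 0.36 (adjusted p = 0.237).

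Other cells' markers beside the Aqp1 results were as follows. With rosiglitazone over all days, 1 of 11 endothelial markers was called lower, Cldn5, a tight junction protein, by 0.71 (list median -0.25). Of 7 erythrocyte markers 1 was called lower, the anion exchanger Slc4a1, by 0.68 (median -0.13). None of 6 fibroblast markers was called (median -0.66), with levels of 9.02 to 14.08 in vehicle and 8.18 to 13.14 in rosiglitazone arrays. With high-dose pioglitazone at day 90, 2 of 11 endothelial markers were called lower (median -0.46). Their levels were 7.86 to 9.41 in vehicle and 7.34 to 8.37 in treated arrays. Of 6 basal urothelial markers 2 were called lower (median -0.60). There 0 of 7 erythrocyte markers (median -0.35) and 0 of 6 fibroblast markers (median -0.61) were called. Of the lists not yet named, myeloid cells and neutrophils had 1, 3 and 2 of 11 markers called lower over all days. These are the low-dose, high-dose and rosiglitazone arms (medians -0.22, -0.24 and -0.19). Skeletal muscle had 0 of 7 called in each arm (medians -0.03, 0.26 and 0.04), and glia and nerve 0 of 3 (medians -0.16, 0.09 and -0.01). Their part in the lower Aqp1 signal was not tested.

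Aqp3 had a higher mean than vehicle in every arm. Its signal ranged from 12.54 to 16.04 in vehicle arrays (median 15.39), from 14.96 to 16.26 with the low dose (median 15.67), from 14.20 to 16.75 with the high dose (median 15.67) and from 13.92 to 16.13 with rosiglitazone (median 15.75). All arms overlapped. The differences were 0.39 ± 0.12 (adjusted p = 0.086), 0.35 ± 0.12 (adjusted p = 0.11) and 0.39 ± 0.12 (adjusted p = 0.0503), none past the threshold, and in each arm 5 of the 6 sex and day differences were positive. Without vehicle male day 3 array 3 they were 0.31, 0.26 and 0.31 (adjusted p = 0.165, 0.199 and 0.0951).

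After 3 days of rosiglitazone, Aqp3 was called. The female arrays had 15.71, 15.40, 16.11, 15.97 and 14.90 with rosiglitazone and 14.29, 13.99, 15.54, 15.38 and 15.02 with vehicle. The male arrays had 15.92, 15.28, 15.76, 15.40 and 15.62 with rosiglitazone and 15.27, 15.42, 12.54, 14.49 and 15.24 with vehicle. Treated arrays were mostly higher, with overlap in both sexes, and the lowest value was the vehicle male array that stood apart. The mean was 15.61 against 14.71, a difference of 0.89 ± 0.21 (SE; 1.85-fold; adjusted p = 0.0487). Without that vehicle array it was 0.63 (adjusted p = 0.298), and the call was lost in 6 of 10 fits that left out a replicate (adjusted p up to 0.206). At day 3 the low dose of pioglitazone gave 0.74 ± 0.21 (adjusted p = 0.354) and the high dose 0.46 ± 0.22 (adjusted p = 0.563), and without the same vehicle array 0.48 and 0.20. At days 28 and 90 rosiglitazone gave 0.35 ± 0.21 and -0.06 ± 0.21, and its effect on Aqp3 was not shown to differ across days (adjusted p = 0.465). At day 3 of rosiglitazone 0 of 6 fibroblast markers (median -0.91; levels of 10.36 to 14.08 in vehicle and 9.29 to 13.14 in treated arrays), 0 of 8 smooth muscle markers (median -0.86) and 0 of 6 umbrella cell markers (median 0.36) were called. Their part in the Aqp3 difference was not tested.

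**Figure D3:**
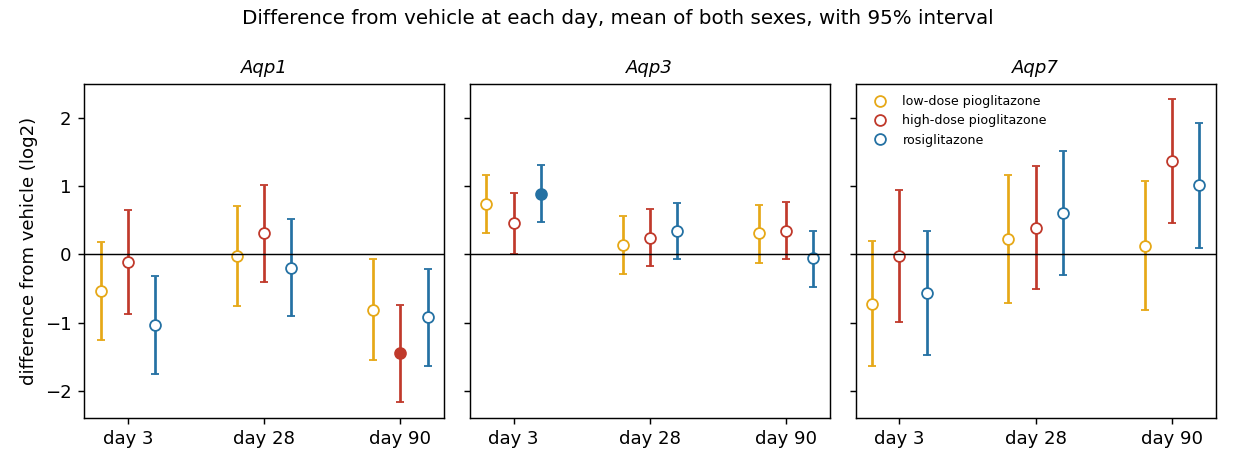
Difference from vehicle (log2, mean over both sexes) of Aqp1, Aqp3 and Aqp7 at days 3, 28 and 90 in the 3 arms. Bars are 95% confidence intervals, and filled symbols passed an adjusted p of 0.05. Filled symbols are Aqp1 with high-dose pioglitazone at day 90 (-1.45) and Aqp3 with rosiglitazone at day 3 (0.89).

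At single days, members were called as follows. Low-dose pioglitazone had 0 of 8 at day 3 (0.0132% of probes), 0 of 8 at day 28 (0.122%) and 0 of 8 at day 90 (0.221%). High-dose pioglitazone had 0 of 8 at day 3 (0.0527%), 0 of 8 at day 28 (0.267%) and 1 of 8 at day 90 (2.47%). Rosiglitazone had 1 of 8 at day 3 (0.119%), 0 of 8 at day 28 (0.761%) and 0 of 8 at day 90 (0.886%). Within one sex over all days, 0 of 8 were called with the low dose in females (0.398%) and males (0.379%), and 0 of 8 with the high dose in females (2.44%) and males (0.573%). No member's effect differed by test between the sexes, with 0 of 8 in each arm (0.0659%, 0.0132% and 0.00329% of probes for low-dose, high-dose and rosiglitazone), or across the days, again with 0 of 8 in each arm (0%, 0.00988% and 0.00988% of probes; 1305 probes had an unadjusted p under 0.05 in the low-dose arm). For the pioglitazone doses, high-dose minus low-dose pioglitazone gave 0 of 8 members and 0% of probes, with 1855 probes at an unadjusted p under 0.05.

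Slc14a1 encodes UT-B, which carries urea across the membranes of red cells, vessels and urothelial cells. Its pooled differences were -0.00 ± 0.14, -0.21 ± 0.14 and 0.11 ± 0.14 for low-dose, high-dose and rosiglitazone, none past the threshold (adjusted p = 0.992, 0.563 and 0.709), and -0.06, -0.27 and 0.05 without vehicle male day 3 array 3. Of the 24 group means, the lowest was 7.73 in high-dose females at day 3. Those 4 arrays had 8.98, 5.44, 8.28 and 8.21, and the 5 vehicle arrays had 10.42, 9.61, 9.27, 8.93 and 8.77. One treated array was far below the rest, and the highest treated array lay above the 2 lowest vehicle arrays. The difference of -1.67 ± 0.36 was called (adjusted p = 0.00611), where 1 of 8 members and 3.48% of probes were. The array at 5.44 was array 3, of the lowest correlation with the other arrays. Without the 2 arrays of lowest correlation the difference was -0.91 (adjusted p = 0.4). On that array the smooth muscle level was 15.62, the basal urothelial level 10.23 and the umbrella cell level 14.46. In the same comparison 0 of 8 smooth muscle markers (median 3.15), 0 of 6 basal markers (median -0.80) and 1 of 7 skeletal muscle markers (higher) were called. Their part in the lower Slc14a1 signal was not tested.

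Over the 18 comparisons of 1 arm with vehicle in 1 sex at 1 day, 2 of 144 member differences were called, where 0.381% of all probes' differences were, and 18 had an unadjusted p under 0.05 (8.83% over all probes), 9 higher and 9 lower. The second call was Aqp1 in high-dose females at day 90, at 9.37 against 11.30 (difference -1.93 ± 0.51, adjusted p = 0.045; 1 of 8 members and 0.626% of probes). It was lost in 7 of 10 fits that left out a replicate (differences of -2.30 to -1.62).

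The aquaglyceroporins Aqp7 and Aqp9 showed no call in any arm. Aqp7, through which adipocytes release glycerol, was uneven between animals. After 90 days of high-dose pioglitazone the 5 female arrays had 7.55, 5.30, 6.73, 6.09 and 6.62 and the 5 male arrays 5.07, 11.15, 7.07, 7.44 and 5.34. With rosiglitazone for 90 days the female arrays had 6.79, 5.59, 5.36, 5.59 and 6.37 and the male arrays 5.56, 6.98, 5.76, 11.34 and 5.38, and the 10 vehicle arrays lay between 4.80 and 6.05. Single males at 11.15 and 11.34 were far above the rest, and both treated groups overlapped vehicle. The day 90 difference was 1.37 ± 0.46 in the high-dose arm (adjusted p = 0.0955) and 1.01 ± 0.46 in the rosiglitazone arm (adjusted p = 0.342). Over all days it was -0.12 ± 0.27, 0.58 ± 0.27 and 0.35 ± 0.26 for low-dose, high-dose and rosiglitazone (adjusted p = 0.885, 0.295 and 0.505). High-dose minus low-dose pioglitazone was 0.70 ± 0.28 for Aqp7 (95% interval 0.16 to 1.25, adjusted p = 0.813), and between -0.20 and 0.04 for the other 7 members.

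Adipocyte marker levels varied likewise. At day 90 they were 5.74 to 7.64 in vehicle, 5.82 to 10.88 in high-dose and 5.99 to 10.80 in rosiglitazone arrays. The male arrays at 11.15 and 11.34 for Aqp7 had 10.88 and 10.80, and the vehicle female day 3 array at 9.45 had 10.48. With the high dose at day 90, 0 of 7 adipocyte markers were called (median 1.02), and with rosiglitazone 0 of 7 (median 0.38). Their part in the Aqp7 differences was not tested.

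**Figure D4:**
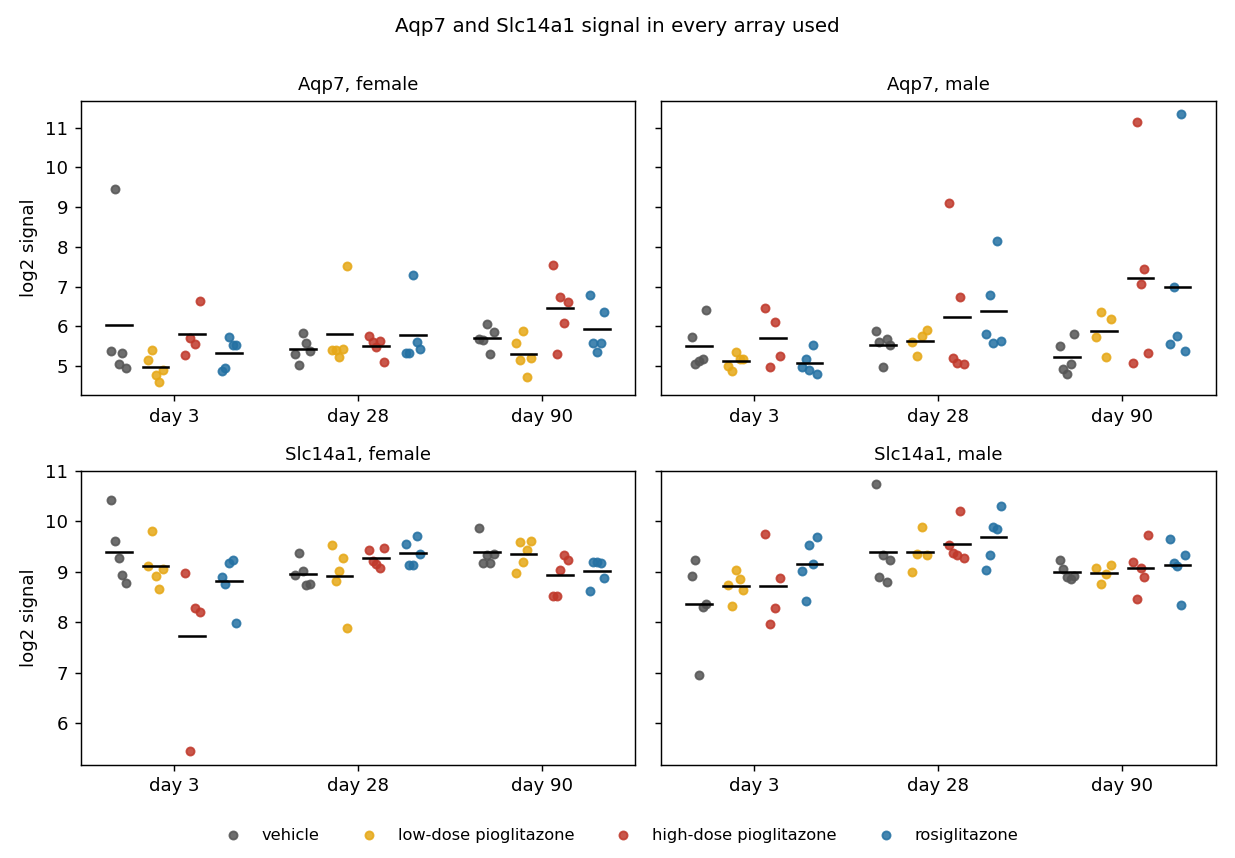
Log2 signal of Aqp7 and Slc14a1 on each of the 116 arrays, grouped by treatment, sex and day; each point is 1 array and each black bar a group mean. Most Aqp7 values are under 7 with single arrays up to 11.34, and 1 high-dose female day 3 array has the lowest Slc14a1 value, 5.44.

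Aqp9 differed from vehicle by 0.03, -0.02 and -0.03 over all days in the low-dose, high-dose and rosiglitazone arms, each with an SE of 0.13, and by 0.10, 0.05 and 0.05 without vehicle male day 3 array 3. The 95% interval for rosiglitazone was -0.29 to 0.24. Aqp11, an intracellular channel of the endoplasmic reticulum, gave 0.22 ± 0.12, 0.12 ± 0.12 and 0.22 ± 0.12 (adjusted p = 0.408, 0.747 and 0.343). Its low-dose difference was 0.19 without vehicle male day 3 array 3, with -0.01 at day 3, and 0.16 without the 2 arrays of lowest correlation.

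The water channels of other tissues, Aqp4 and Aqp5, had mean signals under the median of all probes. Aqp5 gave -0.08 ± 0.10, -0.06 ± 0.10 and -0.20 ± 0.10 (adjusted p = 0.793, 0.857 and 0.27). Aqp4, on its brightest probe, gave -0.15 ± 0.08, -0.17 ± 0.08 and -0.17 ± 0.08 (adjusted p = 0.396, 0.309 and 0.242), negative in 5 of 6 combinations in each arm. The other 2 Aqp4 probes went the opposite way, at 0.25, 0.09 and 0.45 and at 0.09, 0.10 and 0.28, with no call, so the direction for Aqp4 was unsettled. One of these, A_64_P018751, had 5.01 ± 0.68 (SD) over the vehicle arrays but reached 11.86 and 11.62 on the 2 arrays of lowest correlation. Without those 2 arrays its differences were 0.05, -0.20 and 0.45 for low-dose, high-dose and rosiglitazone. The other, A_44_P561166, then gave 0.04, 0.06 and 0.28.

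The wider pathways were read from lists of other genes. None of 6 other family members (Mip, Aqp2, Aqp6, Aqp8, Aqp12a and Slc14a2) was called in any arm over all days (medians 0.08, 0.02 and -0.03). Among 11 genes of the osmotic response and the vasopressin receptors, 1 was called in each arm. This was Akr1b1, aldose reductase, which makes the osmolyte sorbitol from glucose and also reduces lipid aldehydes. It rose by 0.73 ± 0.16, 0.74 ± 0.16 and 0.77 ± 0.16 with low-dose, high-dose and rosiglitazone (log2, SE; adjusted p = 0.00389, 0.0012 and 0.000563), and the list medians were 0.04, -0.12 and -0.02. The Akr1b1 calls were lost when the 3 arrays marked as failing were included (adjusted p = 0.203, 0.216 and 0.0615), and the low-dose call also without low-dose replicate 3 (adjusted p = 0.0602). Among 8 genes of the urea cycle and arginine breakdown, Otc, the mitochondrial enzyme that makes citrulline, rose with the low dose by 0.53 ± 0.13 (adjusted p = 0.02). It had 0.34 ± 0.13 with the high dose (adjusted p = 0.162) and 0.37 ± 0.13 with rosiglitazone (adjusted p = 0.094). The Otc call was lost with the rejected arrays put back (adjusted p = 0.252) and in 4 of 10 fits that left out a replicate. The list medians were 0.01, -0.12 and -0.10. None of 10 genes of glycerol handling and lipolysis was called in any arm (medians -0.07, 0.15 and -0.03).

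Between animals of one group, several members varied with the marker signals of other cell types or of the basal urothelium. Over the 30 vehicle arrays, each member and the mean of each of 10 marker lists were compared after the mean of their sex and day group was taken away. This gave 80 correlations, 9 of them with an adjusted p under 0.05 by Pearson's r (permutation test, 100000 resamples, two-sided). Unless rho is named, p-values here are those of r. By the same test on Spearman's rho, Aqp9 with adipocyte markers (rho = -0.64, adjusted p = 0.0135) also passed, where r was -0.50 (adjusted p = 0.233). So did Aqp11 with skeletal muscle markers (rho = -0.63, adjusted p = 0.025), where r was -0.58 (adjusted p = 0.0518). Values share an array, so its RNA quality and normalisation touch both. Aqp7 varied with the adipocyte markers (r = 0.87, rho = 0.67, p = 7.00e-05, adjusted p = 0.00213), and r was 0.68 without the 2 arrays farthest from the median of the markers. It also varied with glial and nerve markers (r = 0.67, rho = 0.52, adjusted p = 0.0275), where r was 0.39 without 2 arrays. Slc14a1 varied with the basal and intermediate urothelial markers (r = 0.75, rho = 0.62, adjusted p = 0.0046; 0.63 without 2 arrays).

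Aqp1 and Aqp3 varied in opposite directions with the fibroblast markers across these animals. For Aqp1 r was 0.61 (rho = 0.57, adjusted p = 0.0143; 0.59 without 2 arrays), and for Aqp3 it was -0.60 (rho = -0.56, adjusted p = 0.0239; -0.62 without 2 arrays). Aqp3 also ran against the erythrocyte markers (r = -0.51, rho = -0.62, adjusted p = 0.0293; -0.45 without 2 arrays). Aqp11 ran against the markers of fibroblasts (r = -0.76, adjusted p = 0.00213), smooth muscle (r = -0.74, adjusted p = 0.00213) and erythrocytes (r = -0.64, adjusted p = 0.011), with r of -0.81, -0.66 and -0.61 without 2 arrays. For Aqp1 the correlations with the endothelial (r = 0.49, adjusted p = 0.132) and erythrocyte markers (r = 0.20, adjusted p = 0.45) did not pass.

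**Figure D5:**
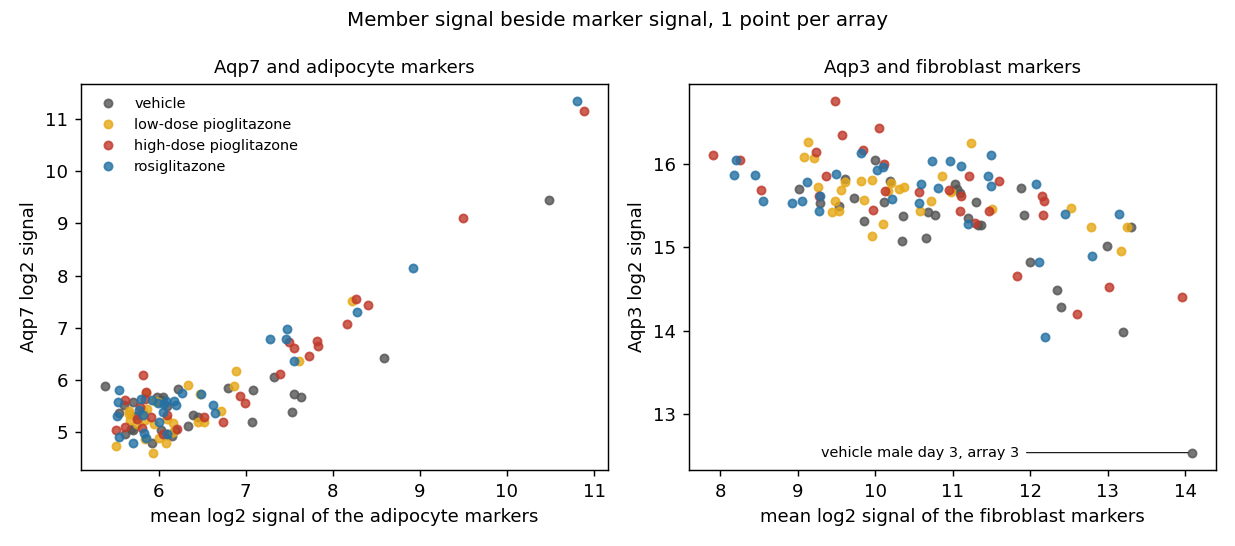
Aqp7 signal against the mean of 7 adipocyte markers, and Aqp3 signal against the mean of 6 fibroblast markers (all log2), 1 point for each of the 116 arrays, with vehicle male day 3 array 3 marked. Arrays with high Aqp7 have high adipocyte markers, and the marked array has high fibroblast markers (14.08) and a low Aqp3 (12.54).

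The genes most like each member over the same 30 vehicle arrays, by Pearson's r on values less the group mean and given as a description, also differed between members. For Aqp1 they were Tgfbi (0.874), C1qtnf5 (0.866) and Jam2 (0.848), of which Tgfbi encodes an extracellular matrix protein and Jam2 a junction protein of endothelium. For Aqp3 they were Sdc1 (0.951), Cyb561 (0.944) and Krtcap3 (0.943), and Sdc1 encodes the epithelial cell surface proteoglycan syndecan 1. Slc7a10 (0.946), Mrap (0.931) and Gpd1 (0.902) were nearest to Aqp7. Slc7a10 and Mrap are known from adipocytes, and Gpd1 makes glycerol 3-phosphate. Nearest to Slc14a1 were Pvrl1 (0.918), Gpa33 (0.913) and Mfap3l (0.912), and to Aqp11 Aspscr1 (0.871), Fgfr2 (0.862) and Capn9 (0.855). For Aqp9 the highest was Kdelc1 (0.826), for Aqp5 Cpne6 (0.775) and for Aqp4 Pclo (0.726), lower than for the other members.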

How the data were processed

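The authors deposited log2 signals, already normalised. Limma stands in the submitters' processing notes, without its role, and how the arrays were normalised is not given in the sources used. The table holds 30367 probes and 116 arrays were used. Of the probes 20369 carry 1 gene symbol and 9998 none. Symbols were updated through RefSeq accessions (17237 probes matched, 2886 symbols changed).

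Using R 4.3.3 and limma 3.58.1, all probes were fitted with a mean for each group (eBayes with a variance trend on signal; 92 residual and 4.631 prior degrees of freedom), without a filter on low values. Each arm was compared with vehicle of the same sex and day, and those 6 differences were averaged with equal weights. Adjustment was by Benjamini-Hochberg within a contrast, and probes under 0.05 were called. Intervals cover 95%. Each rat is 1 array, and the number of arrays limits the precision. The brightest probe stands for Aqp4.

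All 8 members are named. From each pathway list the genes called in any arm over all days are named, at most 4 a list by adjusted p. For likeness the 3 genes with the highest r are given for 5 members and the first for the other 3. The marker lists are umbrella cells, basal and intermediate urothelium, erythrocytes, endothelium, adipocytes, smooth muscle, skeletal muscle, fibroblasts, myeloid cells and neutrophils, and glia and nerve. Lipe and Plin1 stand in both the adipocyte and the glycerol lists. Members and lists were chosen with earlier results of these data known. The model was tested on simulated data. Alternatives were quantile normalisation, centring on the 75th percentile, a filter on the lowest 25% of signals, 1 probe per gene, array weights, no variance trend, the failing arrays, a replicate block, fits of 1 arm with vehicle, and leaving out replicates. Leaving out 2 arrays of low correlation or vehicle male day 3 array 3 was added after seeing the data. Python 3.11.15, pandas 2.3.3, numpy 2.4.6, scipy 1.17.1 and matplotlib 3.10.9 were used.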

Additional observations from a re-analysis of the deposited data

Results flagged for a closer look

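In 23 of 192 groups of 4 or 5 arrays of a member, 1 array lay far from the others (a gap above Dixon's 95% critical value), and chance gives this in about 1 in 20 groups. For Aqp1 these were rosiglitazone female day 3 array 1 (9.12, others 10.11 to 10.50) and vehicle male day 90 array 4 (11.81, others 10.57 to 10.89). For Aqp3 they were low-dose male day 90 array 4 (16.26) and rosiglitazone female day 90 array 1 (13.92, others 15.53 to 16.13). Aqp7 was high on vehicle female day 3 array 2 (9.45), low-dose female day 28 array 5 (7.52), rosiglitazone female day 28 array 3 (7.30) and rosiglitazone male day 90 array 4 (11.34). For Slc14a1 high values stood on vehicle male day 28 array 1 (10.74), vehicle female day 90 array 1 (9.87) and high-dose male day 28 array 4 (10.21). Aqp9 was high on vehicle male day 3 array 3 (9.74) and low on vehicle female day 28 array 1 (6.86) and vehicle female day 90 array 5 (6.58). For Aqp11 the high arrays were low-dose female day 28 array 5 (9.43), rosiglitazone male day 90 array 3 (8.56), and array 5 of high-dose females (7.71) and of high-dose males (7.65) at day 28. Aqp5 was high on high-dose male day 28 array 4 (7.0) and low-dose male day 90 array 4 (5.95), and low on low-dose female day 3 array 2 (4.11), vehicle female day 3 array 5 (4.80) and high-dose male day 3 array 4 (5.03).

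The 3 arrays marked as failing were left out of the fit reported and entered only the repeat fit with failing arrays included. Of their 24 member values, 14 were above every vehicle array of the same sex and day. High-dose male day 3 array 5 had 12.99 for Aqp1, equal to the highest vehicle value at this rounding, 15.77 for Aqp3, 9.49 for Aqp5, 6.67 for Aqp7 and 7.82 for Aqp11. High-dose female day 3 array 2 had 7.96 for Aqp4, 11.79 for Aqp5, 7.92 for Aqp9 and 8.26 for Aqp11. Low-dose male day 90 array 5 had 9.13 for Aqp4, 9.18 for Aqp5, 12.40 for Aqp9, 10.38 for Aqp11 and 14.18 for Slc14a1, where the vehicle arrays reached 9.23. Other values fell below every vehicle array of the same sex and day. High-dose female day 3 array 2 had 5.74 for Aqp1 (vehicle 10.62 to 11.21) and 8.34 for Aqp3 (vehicle 13.99 to 15.54). Low-dose male day 90 array 5 had 6.18 for Aqp1 (vehicle 10.57 to 11.81) and 5.97 for Aqp3 (vehicle 15.07 to 15.79). On high-dose male day 3 array 5, Aqp4 was at 4.54 (vehicle from 6.08) and Aqp9 at 7.11 (vehicle from 7.25).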

How the results depend on the processing

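Of 3153 values of 161 member and list-gene results under 33 other settings, 2916 kept their direction and their side of the threshold, 137 changed sign within 1 SE of 0, 75 lost and 13 gained a call, and 12 reversed. The arrays marked as failing and array weights moved the counts of called probes most. With failing arrays included, the probes called were 71 (low-dose, 423 in the fit reported), 321 (high-dose, 992), 175 (rosiglitazone, 1018), 6 (vehicle by sex, 86) and 166 (vehicle by day, 1042). With array weights they were 3485, 2315, 2458, 714 and 2247, and without the 2 arrays of lowest correlation 706 (low-dose), 1716 (rosiglitazone), 155 (vehicle by sex) and 1634 (vehicle by day). Vehicle by sex had 35 with the low-signal filter and 19 with 1 probe per gene, vehicle by day 358 without vehicle male day 3 array 3, and low-dose 711 in a fit with vehicle alone. Leaving out 1 replicate gave 149 to 624, 580 to 1173 and 647 to 942 in the 3 arms, 6 to 97 by sex and 243 to 725 by day. The causes were not tested.

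The Aqp1 calls with rosiglitazone over all days and with the high dose at day 90 were lost with failing arrays (adjusted p = 0.381 and 0.269). Leaving out replicates gave -0.88 to -0.56 and -1.66 to -1.18. The Aqp3 call with rosiglitazone at day 3 was lost with 75th percentile centring (0.0509), failing arrays (1), array weights (0.0534), no variance trend (0.0571) and a fit of rosiglitazone and vehicle alone (0.135). Its differences ran from 0.72 to 0.99 without 1 replicate. The Aqp3 difference with rosiglitazone over all days gained a call with quantile normalisation (0.0278), the filter (0.0395), 1 probe per gene (0.0368), array weights (0.00139) and without the 2 arrays (0.038). Array weights also gave Aqp3 a call with low-dose (0.0176) and high-dose pioglitazone (0.0357), and Aqp1 one with the low dose (0.0446).

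Reversed with failing arrays were Aqp3 (-0.69), Aqp9 (0.45) and Slc14a1 (0.50) with the low dose at day 90, and Aqp5 with the high dose over all days (0.29) and at day 3 (0.92). Array weights reversed Aqp5 with the low dose at day 3 (0.18) and Aqp11 with the high dose at day 3 (-0.13). Without the 2 arrays Aqp11 (-0.05) and Aqp4 probe A_64_P018751 (-0.27) reversed with the high dose at day 3, the latter also without high-dose replicate 3 (-0.24, in a range of -0.24 to 1.02 without 1 replicate). Aqp9 in vehicle, day 28 minus day 3, ran from -0.22 to 0.27 (without vehicle replicate 3), and Slc14a1 with the low dose from -0.08 to 0.15 (without vehicle replicate 1).

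Replicate numbers did not pair the arrays (median r of deviations -0.007 for the same number and 0.004 for others; 19 of 116 arrays correlated best with their own number). A replicate block gave 389, 953 and 978 called probes in the arms, 87 by sex and 968 by day. It ended 2 member calls, Aqp3 with rosiglitazone at day 3 (0.0562) and Aqp1 with the high dose in females at day 90 (0.0513).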
